A study of Mus musculus with 6 samples.

Results

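The Schlafen genes examined here are Slfn1, Slfn2, Slfn3, Slfn4, Slfn5, Slfn8 and Slfn9, 7 of the 55359 rows of the mouse count table, found by matching their Ensembl gene IDs to symbols. The cells were myeloid-derived suppressor cells (MDSCs), immature myeloid cells able to suppress T cells, grown from C57BL/6 bone marrow for 4 days in GM-CSF and IL-6 at 40 ng/ml each, from which the polymorphonuclear fraction was taken with an isolation kit. In the mtDNA group, mitochondrial DNA at 250 ng/ml was delivered with a lipid transfection reagent, and RNA was taken after 12 h. The blank group had the same culture and isolation without that DNA, and the labels do not say whether it received the reagent, so DNA and reagent cannot be told apart. Each group had 3 libraries of poly(A) RNA, and separate cultures or animals are not stated in the labels. The p-values therefore cover only the variation among these libraries, which may be technical.

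Total counts ran from 4018360 to 4911103 per library. CPM below is the usual depth-scaled read count after TMM scaling, and 1 read was worth 0.2 to 0.256 CPM. Ly6g, the surface antigen that defines mouse granulocytic cells, was thinly counted at 4.24 to 7.07 CPM, while the granulocyte and monocyte gene S100a8 stood at 1627 to 1884 CPM and the macrophage growth factor receptor gene Csf1r at 1410 to 1554 CPM. The values therefore describe the culture as isolated, with transcripts of both myeloid branches. In bulk RNA of this kind, more cells carrying a transcript and more RNA per cell cannot be told apart.

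Schlafen proteins share an N-terminal core that in several members binds or cuts transfer RNA. Of the 7 members, Slfn1 and Slfn2 encode short group I proteins, and Slfn3 and Slfn4 intermediate group II proteins. Slfn5, Slfn8 and Slfn9 encode long group III proteins, which carry an additional helicase-like part. Type I interferon is a known inducer of the family: its receptor activates transcription factors that bind interferon-stimulated response elements in target promoters. Slfn2 is known for holding monocytes and T cells in quiescence, and Slfn4 for marking a population of MDSCs in the inflamed stomach.

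The promoters are shown first, because among the 7 members exact matches to the response element core fell in group III alone. Slfn14, a further Schlafen gene with 2697 coding bases, is not among these members, and its promoter is not shown. Windows from 250 bases before to 50 bases after the RefSeq start site (build GRCm38.p6) were present for 7 of the 7 genes, in 8 entries. The core of the interferon-stimulated response element was taken as GAAA, any 2 bases and again GAAA on either strand. It was found in the promoters of the 3 group III members and in none of the other 4 members. It is in capitals in the stretches below, which on the strand of the gene read TTTCGTTTTC for Slfn8 and Slfn9.
Slfn5: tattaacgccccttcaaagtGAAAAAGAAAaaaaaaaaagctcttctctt
Slfn8: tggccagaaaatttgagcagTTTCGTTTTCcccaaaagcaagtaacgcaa
Slfn9: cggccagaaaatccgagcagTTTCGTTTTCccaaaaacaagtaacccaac
The match lay 155 to 146 bases before the start of Slfn5, 48 to 39 bases before that of Slfn8 (136 to 127 before its other listed start) and 45 to 36 bases before that of Slfn9. Slfn8 and Slfn9 thus had the same 10 bases at nearly the same distance, whereas the Slfn5 match was the start of a run of A.

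Of all 32851 promoter windows, 3.44% held this core, as did 26.4% of the 277 windows of genes that rose at least 2-fold after mtDNA, a set that includes the Schlafen genes. The 4 group I and II promoters instead shared the 9-base stretch ACTTCCTGG, in capitals below, which was picked out after the sequences were seen and contains the GGAA core, on the opposite strand, that ETS-family factors bind. It occurred in 0.843% of all windows and in 2.17% of those of the risen genes, which include these 4. Its presence in these 4 was fixed by how it was picked.
Slfn1: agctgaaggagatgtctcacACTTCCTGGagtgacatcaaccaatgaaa
Slfn2: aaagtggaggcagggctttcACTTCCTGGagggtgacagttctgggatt
Slfn3: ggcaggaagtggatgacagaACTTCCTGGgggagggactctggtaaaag
Slfn4: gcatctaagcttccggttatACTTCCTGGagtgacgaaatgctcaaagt
The stretch began 74, 55, 42 and 73 bases before the start of Slfn1, Slfn2, Slfn3 and Slfn4. A gamma-activated site, TTCNNNGAA (which reads the same on both strands), was in none of the 7 promoters. It was in 8.3% of all windows and 10.1% of those of the risen genes. These are exact matches of letters in a short window, not shown sites of binding. Near-matches were not sought, so a promoter without a match may still hold a similar sequence.

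**Figure D1:**
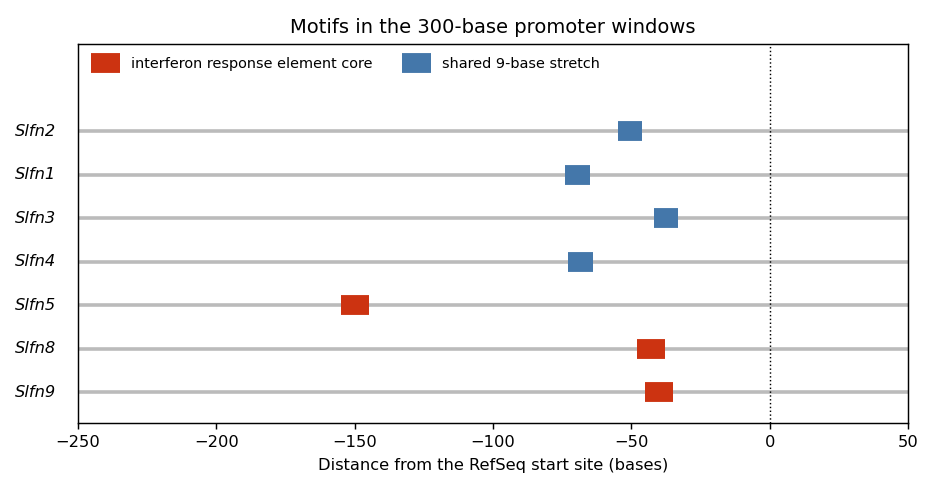
Position of the interferon-stimulated response element core (red) and of the shared 9-base stretch (blue) in the promoter window of each Schlafen gene, in bases from the RefSeq start site (dotted line); for Slfn8 the first of its listed starts is drawn. Red marks are in the 3 group III members and blue marks in the 4 other members, from whose promoters the stretch was picked.

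The whole promoter of Slfn4, the gene with the largest change, is given because it rose most without a match to the response element core. It spans chr11:83174936-83175235 on the plus strand of GRCm38.p6, with the 9-base stretch in capitals.
Slfn4: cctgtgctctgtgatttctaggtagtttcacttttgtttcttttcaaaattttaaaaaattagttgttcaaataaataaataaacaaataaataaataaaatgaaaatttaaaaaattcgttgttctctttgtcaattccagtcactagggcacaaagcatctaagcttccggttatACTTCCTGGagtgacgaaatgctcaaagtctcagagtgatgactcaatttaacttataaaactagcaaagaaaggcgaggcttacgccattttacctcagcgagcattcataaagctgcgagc
The promoter of Slfn5, which rose nearly as much, spans chr11:82951852-82952151 on the plus strand, with the response element core in capitals.
Slfn5: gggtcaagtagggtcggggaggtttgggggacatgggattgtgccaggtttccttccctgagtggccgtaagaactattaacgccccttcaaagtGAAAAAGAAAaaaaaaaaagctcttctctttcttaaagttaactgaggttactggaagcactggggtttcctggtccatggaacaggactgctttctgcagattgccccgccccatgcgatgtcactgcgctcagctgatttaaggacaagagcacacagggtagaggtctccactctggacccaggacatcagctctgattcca

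All 7 Schlafen genes passed the expression filter and all 7 rose after mtDNA transfection, where 11.9% of the 11190 genes tested were called higher and 5.98% lower at an edgeR adjusted p under 0.05. The fitted rise was 2-fold or more in each, as in 2.51% of tested genes, although for Slfn2 the interval reached below it. Their middle log2 change was 2.07, against a median of -0.01 for all tested genes. In each of the 7 genes the lowest mtDNA library lay above the highest blank library, which held for 17.9% of tested genes. Summed over the family, the level was 723 ± 146 CPM in blank and 2986 ± 200 CPM in mtDNA libraries (SD, n = 3 each). The size of the rise differed widely between members, from 2.07-fold for Slfn2 to 12.9-fold for Slfn4.

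**Figure D2:**
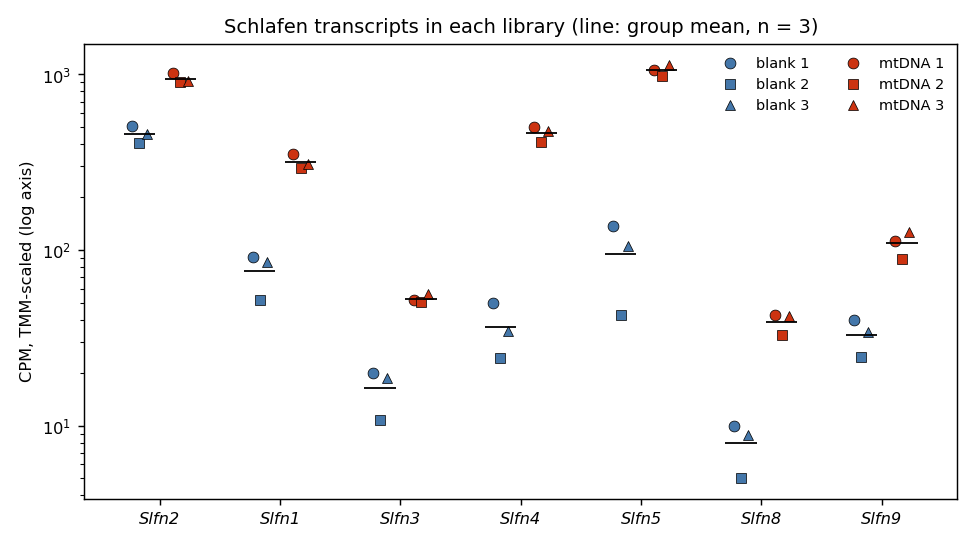
TMM-scaled CPM (log axis) of each Schlafen gene in the 3 blank libraries (blue) and the 3 mtDNA libraries (red), with the group mean as a line; symbols mark the library number. The mtDNA points lie above all blank points in each gene, and blank 2 (square) is the lowest blank point in all 7.

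In group I, Slfn2 (ENSMUSG00000072620) was the most abundant member before and after transfection. It had 507, 408 and 458 CPM in blank 1, 2 and 3 and 1020, 901 and 917 CPM in mtDNA 1, 2 and 3. The libraries of a group lay close together and the groups were well apart, although the rise was the smallest of the family, log2 1.05 ± 0.065 (SE; edgeR adjusted p = 2.59e-11). Slfn1 (ENSMUSG00000078763), whose product is known to arrest the cell cycle when overexpressed in T cells, had 91.6, 51.7 and 85.2 CPM in the blank libraries and 351, 292 and 308 CPM in the mtDNA libraries. Its lowest mtDNA value was thus over 3 times its highest blank value, and it rose 4.2-fold (log2 2.07 ± 0.12, edgeR adjusted p = 5.34e-12).

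In group II, Slfn4 (ENSMUSG00000000204), the MDSC marker named above, showed the largest rise of the family. It had 50.1, 24.2 and 34.6 CPM in blank 1, 2 and 3, and 500, 410 and 474 CPM in mtDNA 1, 2 and 3, with no overlap. Its summed reads were 479 in blank and 6111 in mtDNA, a log2 rise of 3.68 ± 0.13 (edgeR adjusted p = 3.01e-15), the 37th largest log2 fold change and the 9th smallest p of the 11190 genes. Slfn3 (ENSMUSG00000018986), studied mainly in T cells and the gut epithelium, had 20, 10.8 and 18.6 CPM in blank and 52.1, 50.3 and 55.9 CPM in mtDNA libraries. The mtDNA values of Slfn3 were within 1.11-fold of each other, and its rise was 3.25-fold (log2 1.70 ± 0.14, edgeR adjusted p = 3.54e-09). Slfn3 and Slfn4 are close copies, with 94.6% identical bases over the aligned 1650 bases of their coding sequences, yet the ratio of Slfn4 to Slfn3 per transcript length went from 1.79, 1.6 and 1.33 in blank to 6.87, 5.83 and 6.08 in mtDNA libraries. The difference between the groups in this ratio was far larger than its spread within them.

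In group III, Slfn5 (ENSMUSG00000054404), a nuclear protein described in human cells as a regulator of interferon-driven transcription, had 137, 42.9 and 106 CPM in blank libraries and 1061, 985 and 1137 CPM in mtDNA libraries. The blank values differed among themselves by 3.2-fold, the widest baseline spread of the family, and the mtDNA values by 1.15-fold. Slfn5 rose 11.3-fold (log2 3.50 ± 0.19, edgeR adjusted p = 2.30e-12), and with 14119 reads in the mtDNA group it overtook Slfn2 in read number. Its closest relatives in the group moved less. Slfn8 (ENSMUSG00000035208), the least abundant member, had 9.89, 5.01 and 8.83 CPM in blank and 42.4, 33 and 41.9 CPM in mtDNA libraries, a rise of 5.01-fold (log2 2.32 ± 0.17, edgeR adjusted p = 5.25e-10) on 104 and 518 reads per group. Slfn9 (ENSMUSG00000069793) had 39.8, 24.6 and 34.1 CPM in blank and 112, 89.3 and 126 CPM in mtDNA libraries, a rise of 3.36-fold (log2 1.75 ± 0.13, edgeR adjusted p = 5.74e-10).

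Slfn8 and Slfn9 have coding sequences of 2730 bases each with 92.7% identity, and carry the same response element core, but did not rise equally. The ratio of Slfn8 to Slfn9 per transcript length was 0.357, 0.292 and 0.372 in blank and 0.543, 0.531 and 0.479 in mtDNA libraries, without overlap. The 95% intervals of their log2 fold changes, 1.97 to 2.68 for Slfn8 and 1.48 to 2.02 for Slfn9, overlapped slightly, and the difference between the genes was not tested. Slfn4 and Slfn5 also had overlapping intervals, 3.42 to 3.95 and 3.10 to 3.89. Both stood clear of the interval of Slfn8, the next in order, while that of Slfn2, 0.91 to 1.18, lay below all others. The size of the rise therefore did not follow the protein groups: each of groups II and III held both a strongly rising member (12.9-fold and 11.3-fold) and a weaker one (3.25-fold and 3.36-fold). By promoter, the genes with an exact response element core had log2 changes of 3.50, 2.32 and 1.75. Those without an exact match had 3.68, 2.07, 1.70 and 1.05. These ranges overlap, and the difference was not tested.

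**Figure D3:**
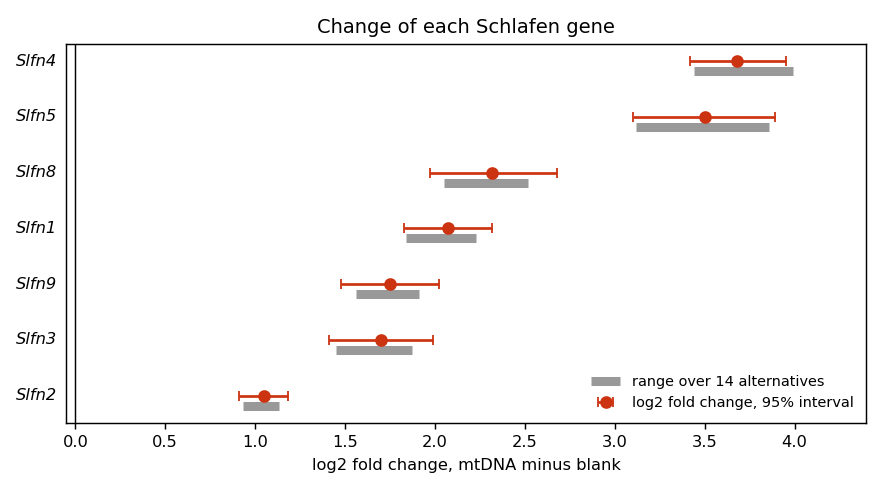
Log2 fold change (mtDNA minus blank) of each Schlafen gene with its 95% interval (red) and the range over 14 alternative analyses (grey bars). Slfn4 and Slfn5 stand above 3 and Slfn2 near 1, and no bar reaches 0.

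Because the genes differ in transcript length (1664 bases for Slfn2 to 5979 for Slfn5, longest annotated transcript), levels between genes were compared as CPM per kilobase. In blank cells the order of these levels was Slfn2 at 275 ± 30.0, Slfn1 at 40.9 ± 11.5, Slfn5 at 16.0 ± 8.05, Slfn4 at 9.18 ± 3.29, Slfn3 at 5.82 ± 1.75, Slfn9 at 5.7 ± 1.33 and Slfn8 at 1.97 ± 0.64 CPM per kilobase (SD, n = 3). Across the blank libraries the ranges of Slfn5 and Slfn4 overlapped, as did those of Slfn4 and Slfn3 and of Slfn3 and Slfn9. Within each blank library, however, Slfn5 stood above Slfn4 and Slfn4 above Slfn3. The order of Slfn3 and Slfn9 differed between blank libraries and is not resolved. In mtDNA cells it was Slfn2 at 568 ± 38.9, Slfn5 at 177 ± 12.7, Slfn1 at 170 ± 16.4, Slfn4 at 117 ± 11.7, Slfn9 at 18.9 ± 3.21, Slfn3 at 18.6 ± 0.999 and Slfn8 at 9.75 ± 1.32. There the ranges overlapped between Slfn5 and Slfn1 and between Slfn9 and Slfn3. Slfn4, once within reach of Slfn3, now stood 6.16 times above the next member.

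These shifts changed the make-up of the family's transcripts. Slfn2 made up 75.1%, 82.9% and 76% of the summed level per kilobase in blank libraries and 53.1%, 53.7% and 51.1% in mtDNA libraries. Slfn5 went from 4.33% ± 1.69 to 16.5% ± 1.13, and Slfn4 from 2.54% ± 0.533 to 10.8% ± 0.442 (SD, n = 3). Slfn1 took 11.4% ± 1.73 before and 15.7% ± 0.525 after. For Slfn3 and Slfn9 the shares of the 2 groups overlapped. Slfn2 remained the largest share in all 6 libraries, while the shares of Slfn1, Slfn4, Slfn5 and Slfn8 were higher in each mtDNA library than in any blank library.

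**Figure D4:**
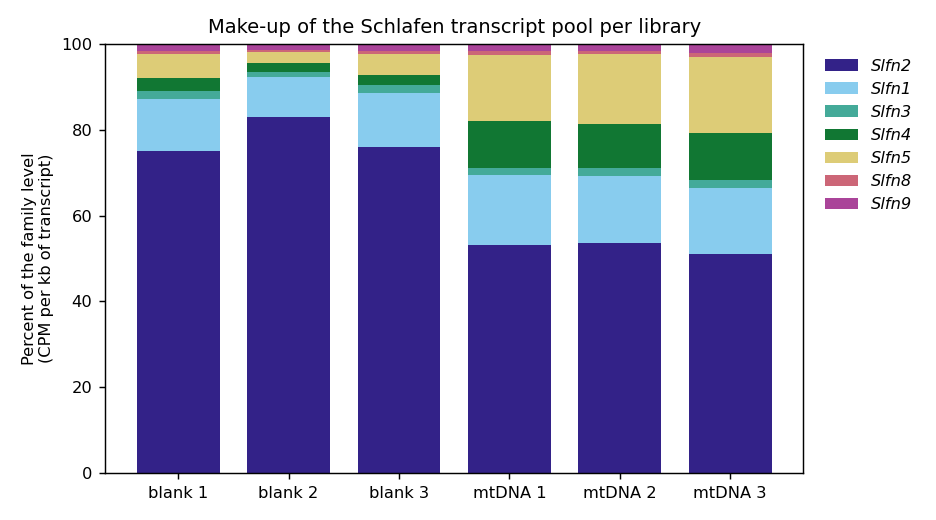
Share of each Schlafen gene in the family's summed level per library, in percent of CPM per kilobase of transcript. Slfn2 (dark blue) fills 75.1% to 82.9% of the blank bars and 51.1% to 53.7% of the mtDNA bars, where Slfn5 (sand) and Slfn4 (dark green) are wider.

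The blank libraries were not alike in these genes. Blank 2 had the lowest CPM of the blank libraries in 7 of the 7 members, and blank 2 was lowest in 35.5% of all tested genes. On the log2 scale blank 2 lay below the mean of blank 1 and 3 by 1.48 for Slfn5 (a difference of -1.48) and by 0.24 for Slfn2 (-0.24), with a family median of -0.77 against -0.01 over all tested genes. The coefficient of variation across blank libraries was 50.4% for Slfn5, 35.9% for Slfn4 and 10.9% for Slfn2, with a family median of 30.1% against 7.76% over all tested genes. Across mtDNA libraries the family median was 9.62%, against 7.8%. A like pattern was present in the interferon-induced IFIT genes, with blank 2 lowest in 5 of 6, a median log2 difference of -1.41 and a median blank coefficient of variation of 56.9%. It was weaker in the guanylate-binding proteins (lowest in 6 of 9, median -0.33) and near the level of all genes in the interferon receptor route (3 of 7, median -0.05). Each member's log2 fold change was lowest without blank 2 or, for Slfn2, under library totals, and highest without blank 1, with Slfn5 between 3.12 and 3.86. What set blank 2 apart was not tested.

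The other Schlafen loci were then considered. Slfn10-ps, a transcribed pseudogene close to Slfn8 and Slfn9, had 16.5, 11.6 and 14.3 CPM in blank and 44.7, 33.8 and 51.9 CPM in mtDNA libraries and rose by log2 1.63 ± 0.16 (edgeR adjusted p = 3.96e-08). Its sequence overlaps theirs: 11.5% of its windows of 75 bases, the read length, also occur in Slfn8 or Slfn9 transcripts, so part of its count is uncertain. For the members themselves the share of such windows found in transcripts of other genes was 0% for Slfn1, 1.7% for Slfn2, 8.37% for Slfn3, 3.24% for Slfn4, 8.81% for Slfn5, 7.52% for Slfn8 and 6.06% for Slfn9. Most of each transcript can therefore be told apart by single reads. For Slfn5 most of the shared windows, 7.06%, lie in the antisense gene Slfn5os, with 0 reads in blank and 4 in mtDNA, too few to test. Slfn14, a ribosome-associated endonuclease of erythroid cells, had 1 to 5 reads per library in either group and Slfnl1, a Schlafen-like gene, had 1 read in all, so a change in them was not detectable at this depth.

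The 7 members lie side by side on chromosome 11, and the fitted change of each tested neighbour was smaller than that of Slfn2, the least changed member. In the annotation, the order is Slfn5, Slfn9, Slfn8, Slfn10-ps, Slfn2, Slfn1, Slfn4, Slfn3 and Slfn14. Among the 10 nearest protein-coding genes before the cluster, 5 were tested, and 1 of them, Rffl, was called higher (log2 0.24 ± 0.080, edgeR adjusted p = 0.0424), a call lost in 10 of the 14 alternatives. Unc45b, a muscle chaperone and the nearest gene on that side, was read 3 times, each in mtDNA libraries, and Nle1, a ribosome assembly factor next to it, had log2 -0.05 ± 0.19. On the other side, 4 of 7 tested genes were called higher, each by less than 2-fold, against 11.9% of all tested genes. Ap2b1, a clathrin adaptor subunit, rose by log2 0.26 ± 0.052 (edgeR adjusted p = 0.000781). The chemokine genes Ccl5 and Ccl9, the farthest of the 10, rose by 0.70 ± 0.092 and 0.30 ± 0.056 (edgeR adjusted p = 5.20e-06 and 0.000345). Heatr9, on 36 and 67 reads per group, had 0.90 ± 0.30 (edgeR adjusted p = 0.0449), a call lost in 8 of the 14 alternatives. Between Slfn3 and Slfn14, the noncoding rows AI662270 and Gm11427 had log2 0.30 ± 0.085 and 0.56 ± 0.13 (edgeR adjusted p = 0.0157 and 0.00342). Gm11427 is a pseudogene that shares 4.6% of the windows of Slfn3.

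**Figure D5:**
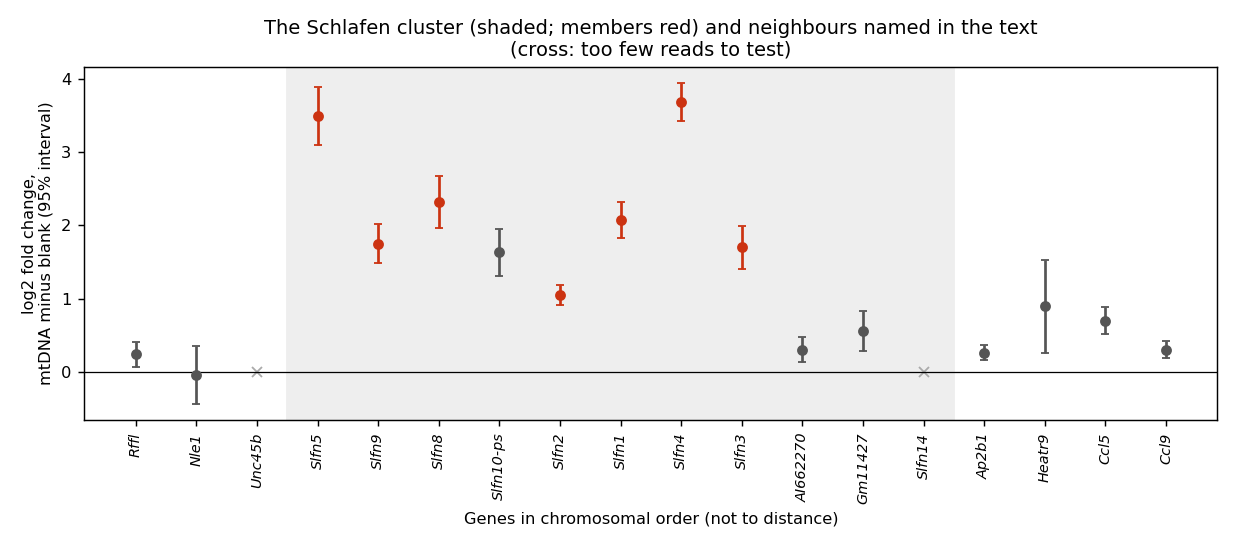
Log2 fold change (mtDNA minus blank) with 95% interval of genes in chromosomal order across the Schlafen cluster (shaded, members red) and the neighbours named in the text; crosses mark genes with too few reads to test. The members stand between 1.05 and 3.68 and each tested neighbour drawn outside the shading stands below 1.

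The genes of the interferon receptor route, which feeds the family's known induction, were compared in the same fit. Of its 7 genes 7 were called higher, against 11.9% of all tested genes. Their median was log2 0.34, and the count called higher was 6 in 7 of the 14 alternatives. Among them, the transcription factor gene Stat2 had a log2 change of 2.32 ± 0.12 (edgeR adjusted p = 1.40e-12) and its partner Irf9 one of 1.07 ± 0.11 (edgeR adjusted p = 7.76e-08). The receptor genes Ifnar1 and Ifnar2 rose less, by 0.29 ± 0.054 and 0.34 ± 0.065 (edgeR adjusted p = 0.0005 and 0.000578). Stat2 had 182, 95.2 and 131 CPM in blank libraries and 715, 633 and 671 CPM in mtDNA libraries, so that blank 2 was its lowest library too. As a family the Schlafen genes, with a median of 2.07, stood below the IFIT genes (5.86, 6 of 6 called higher) and the guanylate-binding proteins (2.90, 9 of 9 tested called higher). The smallest IFIT change, 2.90, lay above those of 5 of the 7 Schlafen genes, and the difference between the families was not tested.

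Lists of other genes tied to Schlafen functions were set beside all tested genes, of which 11.9% were called higher and 5.98% lower. In the list of transfer RNA cleavage, splicing and repair, 1 of 18 tested genes was called higher and 1 lower (median log2 -0.06). Rnh1, the inhibitor of the RNase A family that includes the tRNA-cutting angiogenin, had 749 ± 17.8 CPM in blank and 893 ± 58.6 CPM in mtDNA libraries, a rise of log2 0.25 ± 0.051 (edgeR adjusted p = 0.000912). Tsen15, a subunit of the tRNA splicing endonuclease, fell by 0.69 on the log2 scale (adjusted p = 0.0197, edgeR) on 119 and 73 reads, a call lost in 5 of the 14 alternatives, DESeq2 among them. In the list of ribosome stalling and its response, 3 of 12 genes were called higher and 2 lower (median 0.02). Its clearest member was Gcn1l1, a co-activator of the kinase GCN2, which fell by 0.26 on the log2 scale (adjusted p = 0.00474, edgeR). Ddit3, Gtpbp1 and Zfp598 had log2 0.54 ± 0.15, 0.26 ± 0.070 and -0.32 ± 0.091 (edgeR adjusted p = 0.0132, 0.0116 and 0.016), and each lost its call in 3 or 4 of the alternatives.

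Among quiescence factors and G1 cyclins, 5 of 18 were called higher and 2 lower (median 0.00), against 11.9% and 5.98% of all tested genes. Ccnd1, the cyclin whose induction Slfn1 is known to restrain, had 30.6, 29.7 and 27.7 CPM in blank and 128, 119 and 110 CPM in mtDNA libraries (log2 2.01 ± 0.084, edgeR adjusted p = 3.32e-14). Ccnd2 rose by 1.47 ± 0.086 (edgeR adjusted p = 9.41e-12), while the partner kinase gene Cdk4 fell by 0.38 on the log2 scale (adjusted p = 0.000129, edgeR). Ccnd3, the most abundant D-type cyclin gene by CPM, had log2 0.13 ± 0.055 (edgeR adjusted p = 0.104), and Cdkn1a, a cyclin-dependent kinase inhibitor gene, rose by 0.53 ± 0.048 (edgeR adjusted p = 1.96e-08). Tob1, an antiproliferative factor, had log2 -0.28 ± 0.082 (edgeR adjusted p = 0.0185), a call lost in 4 of the 14 alternatives. Of 9 genes whose products human SLFN11 binds or acts on, 0 were called higher and 2 lower (median -0.10): the helicase subunit gene Mcm3 and the single-strand binding protein gene Rpa2 fell by 0.36 and 0.55 on the log2 scale (adjusted p = 0.000372 and 0.00116, edgeR). Of the 9 Hedgehog genes, listed because Gli1 is known to control Slfn4 in the stomach, 2 were counted well enough to test and 0 were called, and Ptch1, with the smallest p, had log2 -0.32 ± 0.18 (edgeR adjusted p = 0.246). Gli1 itself was read 2 times, both in mtDNA libraries.

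The genes with the most similar profile over the 6 libraries were found by the root-mean-square difference of mean-centred log2 CPM. Closest to Slfn2 were Samhd1, a nucleotide hydrolase that limits viruses (0.042), the cytidine deaminase gene Apobec1 (0.044) and Tmem184b (0.057), which rose 2.05-fold to 2.09-fold. Closest to Slfn4 were Oasl2, of the oligoadenylate synthetase family (0.093), the interferon-inducible GTPase gene Ifi47 (0.13) and Phf11d (0.15), which rose 11.7-fold to 18-fold. With 2 groups of 3 libraries, likeness mainly reflects a similar size of change.

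Since several Schlafen genes are known from T cells, markers of other cell types were examined beside the result. T cell markers summed to 84.8 to 93.3 CPM in blank and 82 to 95.8 CPM in mtDNA libraries, nearly all of it Thy1. The other T cell markers were thinly read. Cd3e and Trac had 0 to 3 reads in any library, Cd3g 0 to 7, Cd3d 3 to 13 and Lck 6 to 17. B cell markers summed to 20.2 to 26.6 CPM in blank and 25.4 to 28.3 CPM in mtDNA libraries. Dendritic cell markers summed to 312 to 327 and 345 to 351 CPM. Most of that was Ccr7, at 271 to 286 CPM in blank and 304 to 308 CPM in mtDNA libraries. Of the 5 dendritic cell markers tested, 0 were called. NK cell markers summed to at most 1.19 CPM, with 3 of 5 at 0. Of the neutrophil markers 1 of 13 was called higher, Ngp, and their sum was 7928 to 8345 CPM in blank and 8264 to 8893 CPM in mtDNA libraries. Of the monocyte and macrophage markers 6 of 10 were called higher and 0 lower. Of all tested genes 11.9% were called higher and 5.98% lower. The monocyte and macrophage markers summed to 3586 to 3722 CPM in blank and 4546 to 4851 CPM in mtDNA libraries. Their largest changes were those of Fcgr1 (log2 2.54) and Ly6c2 (0.85), and the part of these cells in the Schlafen result was not tested.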

How the data were processed

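The deposited values are raw counts of reads for each gene, 6 columns for 6 libraries. The submitters' processing notes list STAR 2.7.10a, the build GRCm39, FastQC and DESeq2, and per the file headers the counts are STAR gene counts. Neither annotation release nor strand setting is given in the sources read. How reads were counted where Slfn5 and its antisense partner overlap is therefore not known. Libraries were directional, with single-end reads of 75 bases, per the labels' protocols.

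Symbols came from GENCODE M21 (GRCm38), which matched 52083 of 55359 IDs and 7 of 7 members. It served for names, transcript lengths, gene order and shared sequence, and no gene coordinates are taken from it. Promoter sequences and their coordinates are RefSeq's on GRCm38.p6, a build other than that of the counts. All genes were fitted together with edgeR 4.0.16 (R 4.3.3), after its default filter on low counts and with TMM factors of 0.9473 to 1.046, by the two-sided quasi-likelihood test, Benjamini-Hochberg adjustment over 11190 genes, threshold 0.05. Standard errors were computed as the absolute log2 fold change over the root of F. Groups came from the treatment label. No library was a copy of another: pairs of a group gave 1.54 to 2.28 for chi-square over its degrees of freedom.

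The 7 members and the gene lists were chosen with earlier results of these data known, so no list test is given. Named genes are all members; up to 2 risen and 2 fallen genes of each list by smallest p, or the smallest p where none passed; the nearest 2 and any called neighbours; and the 3 genes most like Slfn2 and Slfn4. Some genes this rule names are not reported here. Marker genes, Gli1, the untested Schlafen loci and the noncoding rows of the cluster, Irf9, the receptor genes, Ccnd3 and Cdkn1a were added after their values were seen. Alternatives were other scalings, filters, DESeq2 1.42.0, limma-voom (limma 3.58.1), a block and omission of each library. The tests were first tested on simulated data.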

Additional observations from a re-analysis of the deposited data

How the results depend on the processing

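The 7 Schlafen members were called higher in 14 of 14 alternatives, with an adjusted p of at most 4.19e-07. Their log2 fold changes ranged from 1.84 to 2.23 for Slfn1, 0.93 to 1.13 for Slfn2, 1.45 to 1.87 for Slfn3, 3.44 to 3.99 for Slfn4, 3.12 to 3.86 for Slfn5, 2.05 to 2.52 for Slfn8 and 1.56 to 1.91 for Slfn9. Library totals moved the median of all genes to -0.13 (upper-quartile factors -0.09), against -0.01 with TMM, and the small changes followed. Genes called higher went from 1327 to 861 under library totals, and genes called lower from 669 to 1504 under upper-quartile factors, 2356 under library totals, 217 in DESeq2 and 410 to 522 upon leaving out a library. Counts called lower became 4 and 6 (tRNA list), 4 and 4 (SLFN11 targets) and 7 and 7 (quiescence and cyclins) under upper-quartile factors and library totals, and 4 (ribosome stalling) under library totals. In DESeq2 they became 0 for the tRNA list and 1 for ribosome stalling and for quiescence, and 0 stalling genes were called higher. That last count was 1 under both of those scalings. Leaving out single libraries gave 0 to 1 tRNA genes lower, 1 to 2 stalling genes higher and 1 to 2 lower, 1 to 2 quiescence genes lower, 0 to 1 SLFN11 targets higher and 0 neighbours before the cluster higher, which were also 0 under both scalings, without a filter and in DESeq2. The cause of these shifts was not tested. Total exonic length in place of the longest transcript lowered Slfn3 in mtDNA cells from 18.6 to 15.5 CPM per kilobase. Neighbouring title numbers as a replicate block left the calls of the 7 members in place (Slfn5 3.54, Slfn4 3.69, Slfn2 1.05), with 1387 genes called higher and 747 lower. The labels do not pair the libraries, and neighbours' deviations correlated at 0.04. Changes in genes with few reads, such as Slfn14, were not detectable at this depth.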
